A study of Homo sapiens with 6 samples.

Results

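The 3 rows described here, from an RNA-seq count table and known by their first UCSC hg19 transcript IDs uc002ndw.3, uc003yss.4 and uc004bay.2, held transcripts that were over 12-fold more abundant in A172 cells given an siRNA against ADAR1 and stood near that level, or above it, when an siRNA against Staufen1 was given as well. They were chosen by ID out of 20514 for these very values, so their differences between groups are given as descriptions, without p-values. The table gives no gene names for its rows. No reference table used here pairs these 3 IDs with a gene symbol, so the rows are called by ID, and their function, position and sequence were not analysed here.

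A172 is an established human glioblastoma cell line. The 6 libraries, 2 in each of 3 groups, came from cells transfected with a control siRNA (siControl), with siADAR1, or with siADAR1 and siStaufen1, which is called the combined knockdown here. The labels give 1 treatment description for all libraries, in which a plasmid for HA-tagged STAU1 follows the siRNA by a day, and it does not name siStaufen1. A group with siStaufen1 alone was not analysed here, so the siRNA is seen only on top of siADAR1, and nothing in the labels says that the libraries of a group came from separate cultures.

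ADAR1 is an RNA-editing enzyme that converts adenosine to inosine within double-stranded RNA, and it also binds such RNA without editing it. Staufen1 is another double-stranded RNA-binding protein. In Staufen-mediated decay it recognises base-paired structures in the untranslated end of an mRNA and, with the helicase UPF1, marks that mRNA for degradation. By its title, the series concerns ADAR1 as an inhibitor of this decay in stressed cells.

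Library totals ran from 20291057 to 29508632 estimated reads. Levels below are CPM values, reads scaled to a common library size, after scaling each library by its TMM factor unless library totals are named. The interval behind each level is a 95% Clopper-Pearson interval. It comes from the reads of that library alone, so it covers counting error only and not differences between libraries. PCR copies of a molecule are not told apart in these counts. Knockdown of ADAR and STAU1 themselves and the glioblastoma markers of the line were not analysed here, for want of gene names. Transcript lengths were not used, so a CPM is compared between groups and not between rows. In RNA from whole cultures, a level set by the number of cells that carry a transcript and one set by the amount per cell cannot be told apart.

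uc002ndw.3, a row of 1 transcript, was the lowest of the 3 in siControl reads and showed the largest fold. Its siControl libraries held 11 reads (0.611 CPM, interval 0.305 to 1.09) in replicate a and 29 reads (1.30 CPM, interval 0.871 to 1.87) in replicate b. With siADAR1 it had 697 and 858 reads, which are 25.1 and 26.5 CPM. In the combined knockdown it had 846 and 794 reads, which are 33.8 and 27.9 CPM. Every library with siADAR1 lay far above both siControl libraries. Under TMM scaling both combined-knockdown libraries lay above both siADAR1 libraries, the lower of them by a factor of 1.05 over the higher siADAR1 library. Scaled to library totals these 2 groups overlapped, at 27.7 and 29.1 CPM with siADAR1 and 34.5 and 28.2 CPM in the combined knockdown.

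Averaged by group, uc002ndw.3 stood at 0.956 ± 0.49 CPM with siControl (SD, n = 2). It reached 25.8 ± 0.97 CPM with siADAR1 and 30.9 ± 4.2 CPM once siStaufen1 was added (SD, n = 2 for both). The fitted log2 fold change against siControl was 4.70 (SE 0.20) with siADAR1, a 25.96-fold difference, and 4.95 (SE 0.20) with the combined knockdown. Each SE given for a row was worked back from edgeR's F test, as the size of the log2 value over the square root of F. It is therefore no independent measure of error. It was not checked against the counting error of the few siControl reads and may understate it. Between single libraries the ratio of siADAR1 to siControl ran from 19.3 to 43.4. The size of this fold therefore rests on a few siControl reads: the log2 value was 4.30 without siControl replicate a and 5.38 without siControl replicate b, and that of the combined knockdown was 4.54 and 5.63. The step from siADAR1 to the combined knockdown was 0.25 (SE 0.12) on the log2 scale, 0.11 without combined-knockdown replicate a and 0.38 without replicate b.

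uc003yss.4, a row of 6 transcripts, had the most reads of the 3 and the closest replicates. It was counted in 98 reads (5.45 CPM, interval 4.42 to 6.64) and 130 reads (5.83 CPM, interval 4.87 to 6.92) in siControl. The siADAR1 libraries held 2027 and 2369 reads, and the levels were 73.1 and 73.2 CPM. The combined-knockdown libraries held 2393 and 2711 reads, at 95.7 and 95.2 CPM. The 3 groups thus formed 3 separate steps with no overlap, siControl lowest and the combined knockdown highest.

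Its means were 5.64 ± 0.27, 73.1 ± 0.074 and 95.4 ± 0.34 CPM (SD, n = 2 each) in the same order. Against siControl the fitted log2 fold change of uc003yss.4 was 3.69 (SE 0.083) with siADAR1, or 12.9-fold, and 4.08 (SE 0.082) with the combined knockdown, or 16.9-fold. Adding siStaufen1 left it 1.30-fold higher than with siADAR1 alone, a log2 difference of 0.38 (SE 0.061). In single libraries that ratio lay between 1.3006 and 1.309. That range does not include counting error. The counting intervals were 69.9 to 76.3 and 70.3 to 76.2 CPM with siADAR1. In the combined knockdown they were 91.9 to 99.6 and 91.6 to 98.8 CPM. Scaled to library totals the log2 difference was 0.27. That scaling lowers the median log2 difference over all tested rows by 0.11 in this comparison, so the step relative to other rows was like that under TMM.

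uc004bay.2, again a row of 1 transcript, was the only one of the 3 whose combined-knockdown mean was below its siADAR1 mean. In siControl it had 23 reads (1.28 CPM, interval 0.810 to 1.92) and 35 reads (1.57 CPM, interval 1.09 to 2.18). With siADAR1 it had 528 and 589 reads, at 19.0 and 18.2 CPM, and in the combined knockdown 461 and 428 reads, at 18.4 and 15.03 CPM. Replicate a of the combined knockdown fell between the siADAR1 libraries and replicate b below both, so these groups overlapped, whereas siControl stayed apart from both.

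The means of uc004bay.2 were 1.42 ± 0.21, 18.6 ± 0.59 and 16.7 ± 2.4 CPM (SD, n = 2 each). The fitted log2 fold change was 3.69 (SE 0.17) with siADAR1, or 12.9-fold, and 3.53 (SE 0.17) with the combined knockdown, or 11.6-fold. From siADAR1 to the combined knockdown it was -0.16 (SE 0.11), with -0.31 when combined-knockdown replicate a was left out and -0.023 when replicate b was. Its fold with siADAR1 was near the selection limit: without siControl replicate a the log2 value was 3.55, under the 3.58 that 12-fold corresponds to.

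**Figure D1:**
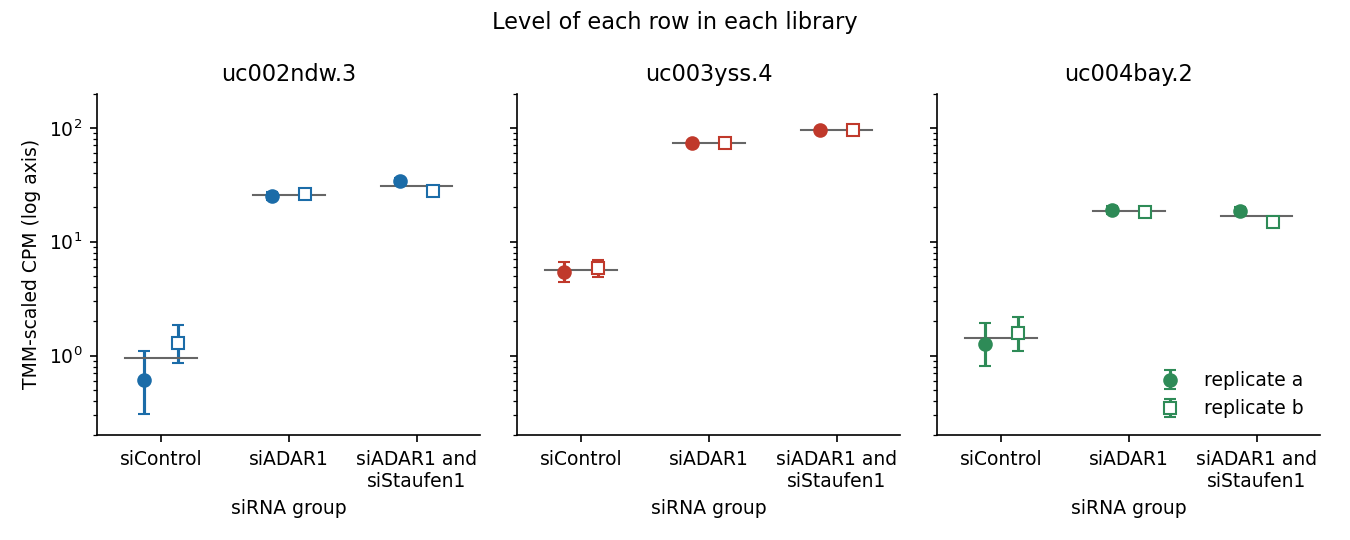
TMM-scaled CPM (vertical log axis) of the 3 rows in each of the 6 libraries by siRNA group (horizontal axis), with filled circles for replicate a, open squares for replicate b, error bars for the 95% Clopper-Pearson counting interval and grey lines for the group mean. All siADAR1 and combined-knockdown libraries stand above the siControl libraries, and the widest intervals are those of siControl, from 0.305 to 1.09 CPM for uc002ndw.3 in replicate a.

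These values can be read only beside how common such differences were in the whole table, and all 3 comparisons share libraries with one another. Of 14711 rows with enough reads to be tested, 32.9% were called higher with siADAR1 than with siControl (edgeR quasi-likelihood F test, Benjamini-Hochberg adjusted p under 0.05), and 42.3% had both siADAR1 libraries above both siControl libraries. All 3 rows were among both sets. For the combined knockdown against siControl 28.7% were called higher and 39.8% had no overlap in that direction, again including all 3 rows. Between the combined knockdown and siADAR1, 21.7% were called higher, of the 3 rows only uc003yss.4. In that comparison, under TMM scaling, 37.1% had both libraries above both, which took in uc002ndw.3 and uc003yss.4. Another 25.5% overlapped, as uc004bay.2 did. The rule for the rows used these contrasts, so nothing is read from the counts.

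A difference past 12-fold was rare, at 48 rows or 0.326% of those tested. By fitted fold with siADAR1, uc002ndw.3 ranked 17, uc003yss.4 ranked 43 and uc004bay.2 ranked 44 of 14711. With the combined knockdown against siControl they ranked 11, 15 and 27, each higher in the order than with siADAR1 alone. For uc004bay.2 this was so although its fold was lower, at 11.6 against 12.9. The rule chose rows that kept their level, so nothing is read from the move in the order. Of the 48 rows, 9 had no siControl read at all, so their fitted folds depend on the prior count and are no measure of size. The number 48 also moves with the siControl libraries, to 118 without replicate a and 153 without replicate b, and to between 66 and 69 without one of the other libraries. Leaving a library out changes the rows that pass the filter and, for siControl, the baseline as well, and these were not separated.

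**Figure D2:**
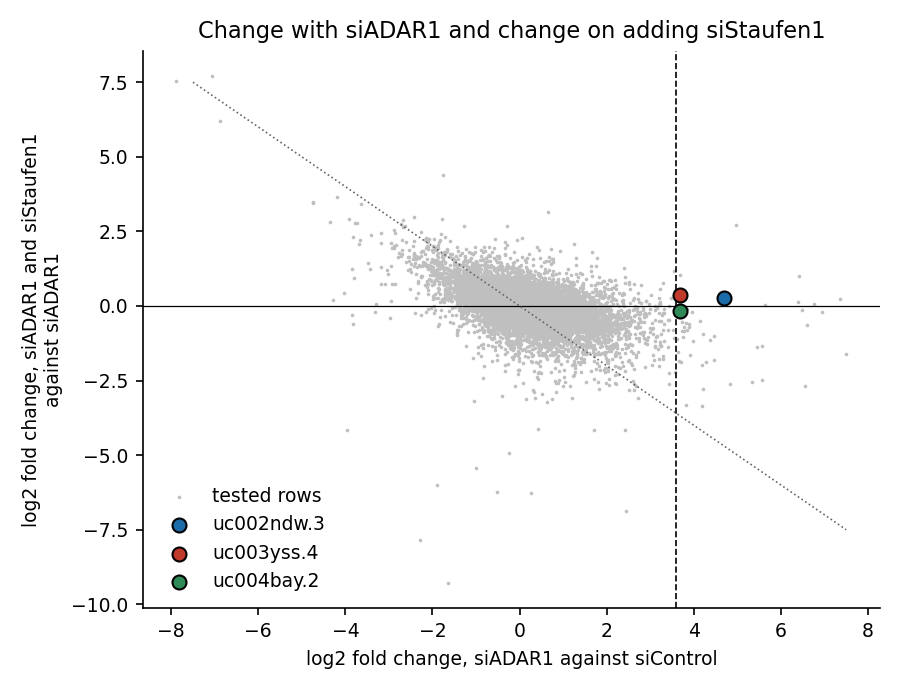
Log2 fold change with siADAR1 against siControl (horizontal axis) and log2 fold change of the combined knockdown against siADAR1 (vertical axis) for the 14711 tested rows in grey, with the 3 rows in colour. The dashed line marks 12-fold and the dotted line a full return to the siControl level. The 3 rows lie right of the dashed line at 0.25, 0.38 and -0.16 on the vertical axis, close to 0.

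The 48 rows were picked for high values in the same siADAR1 libraries that the combined knockdown is compared with here, so their position against siADAR1 is a description. There were 33 rows more than 20% below their siADAR1 level, 22 of them below 50% of it, while 5 were up to 20% below and 10 were at or above it. Over all tested rows 24.4% were more than 20% below. In edgeR's test 24 of the 48 rows fell, 3 rose and 21 were not called between siADAR1 and the combined knockdown, where 21.5% of all tested rows fell. The median share of the log2 difference from siControl that was left in the combined knockdown was 78.2% (quartiles 58.9% and 97.2%). For uc002ndw.3 it was 105%, for uc003yss.4 110% and for uc004bay.2 95.8%, which placed them at 6, 4 and 14 in the order of the 48. The share divides by the fitted difference with siADAR1, so the median and the order also rest on the 9 rows without siControl reads. The highest share, 155%, belonged to a row with 0 siControl reads. As levels, the combined knockdown stood at 119%, 130% and 89.7% of siADAR1.

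In all, 15 rows were over 12-fold higher with siADAR1 and no more than 20% below that level in the combined knockdown. Only these 3 reached 3 in average log2 CPM, a limit that is not stated in the rule. Rows at 2.73 and 2.69 fell just short of it, with 102% and 97.5% of the log2 difference left. The average log2 CPM is taken over all 6 libraries, and all 3 rows reached 3 through the knockdown groups. Their siControl means were only 0.956, 5.64 and 1.42 CPM, each below 3 on the log2 scale. The limit therefore draws on the values that chose them. The other 12 ran from -1.98 to 2.73 in average log2 CPM, with siADAR1 means of 0.139 to 8.97 CPM (median 0.709) and at most 25 siControl reads over both libraries, and 7 of them had none. Of the 10 rows over 12-fold that did reach an average log2 CPM of 3, the other 7 lay more than 20% below their siADAR1 level, which restates how the 3 were chosen. The count of 3 became 6 without siControl replicate b, all 3 rows included, and without siControl replicate a it stayed at 3 rows but with uc004bay.2 no longer among them.

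Among rows no more than 20% below their siADAR1 level in the combined knockdown, the last inside the 12-fold limit was at 12.9-fold, with 2 and 1 siControl reads, and the first outside at 11.6-fold, with 0 and 2. Both stood well above their siADAR1 level in the combined knockdown, by log2 differences of 1.05 and 1.18. When 3 or more in average log2 CPM was asked for, the last inside was uc004bay.2 itself. The first outside was a row at 9.81-fold, with 329 and 552 siControl reads, whose level was higher still in the combined knockdown by 0.76 on the log2 scale.

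**Figure D3:**
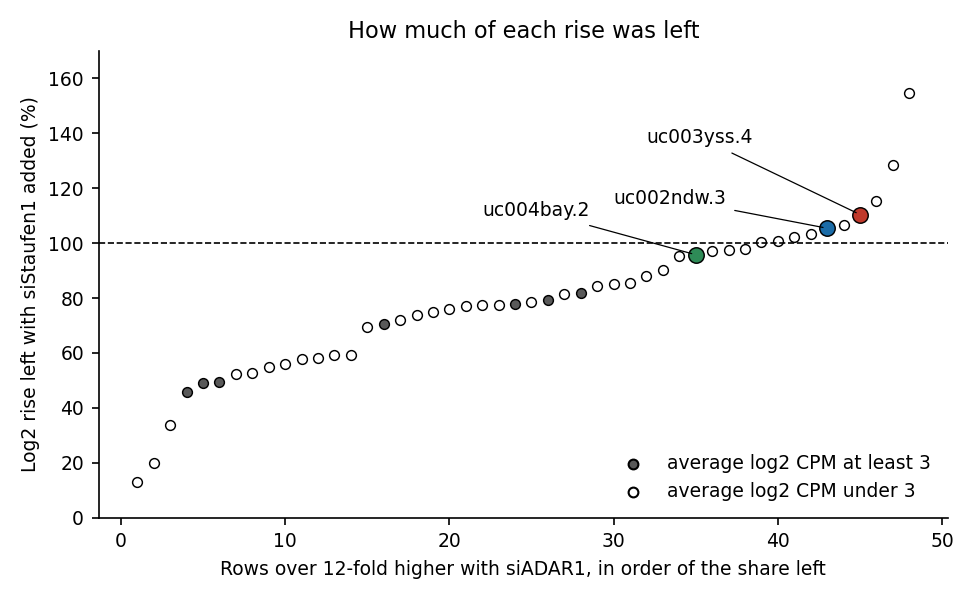
Share of the log2 difference from siControl left in the combined knockdown (vertical axis, percent) for the 48 rows over 12-fold higher with siADAR1, in order of that share (horizontal axis), with filled points for 3 or more in average log2 CPM and open points for less. The dashed line at 100% is the siADAR1 level. The 3 rows, in colour, lie at 95.8%, 105% and 110%, above the 7 grey points, which stay under 82%.

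The libraries of a group did not agree equally well for the 3 rows. Each difference between replicates was set beside those of tested rows with a like number of reads, from 1.5 times fewer to 1.5 times more. In siControl, uc002ndw.3 was 2.13 times higher in replicate b than in replicate a, a larger gap than in 90.0% of 1279 such rows. In the combined knockdown, replicate b was lower than replicate a by a log2 difference of -0.28 for uc002ndw.3 and -0.29 for uc004bay.2. These gaps were larger than in 98.4% of 2473 and 95.9% of 2525 rows with a like number of reads, where the median gap was 0.071 and 0.093. For uc003yss.4 the same difference was only -0.0073, and in siADAR1 it was 0.0021, and only 2.10% of rows with a like number of reads had a smaller gap. In siADAR1 the other two rows differed by 0.077 and -0.065, close to the median of such rows.

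**Figure D4:**
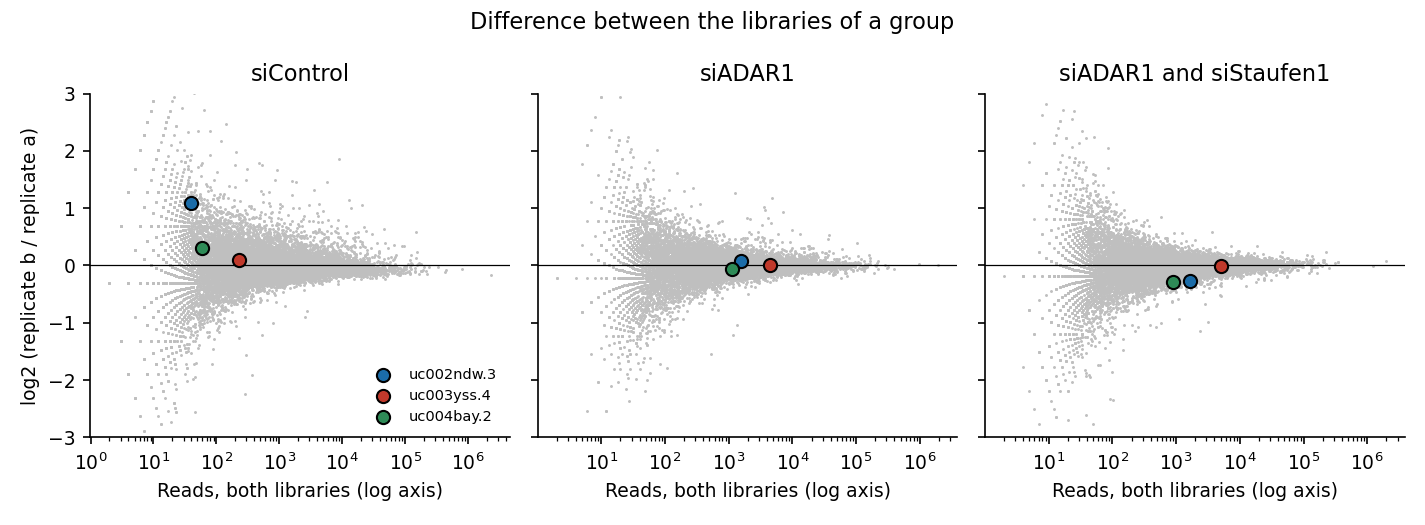
Log2 ratio of replicate b to replicate a (vertical axis) against the reads of both libraries (horizontal log axis) in each group, with tested rows in grey and the 3 rows in colour. Rows without reads in 1 of the libraries and ratios beyond 3 in size are not drawn. uc002ndw.3 is at 1.09 in siControl, and uc002ndw.3 and uc004bay.2 lie together at -0.28 and -0.29 in the combined knockdown.

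Because scaling cancels within a library, the ratios of reads between the rows show how they moved against each other. The reads of uc002ndw.3 per read of uc004bay.2 were 0.478 and 0.829 in the siControl libraries, 1.32 and 1.46 with siADAR1, and 1.84 and 1.86 in the combined knockdown. This ratio was higher at each step with no overlap between groups. How often other pairs of rows separate in this way was not computed. The rows were chosen by these same levels, so the ratios are descriptions and nothing is read from their separation. The reads of uc003yss.4 per read of uc004bay.2 were 4.26 and 3.71 in siControl and 3.84 and 4.02 with siADAR1, which overlap, and 5.19 and 6.33 in the combined knockdown, above the rest. The reads of uc002ndw.3 per read of uc003yss.4 were 0.112 and 0.223 in siControl and 0.344 and 0.362 with siADAR1. In the combined knockdown they were 0.354 and 0.293, which overlaps siADAR1. The proportion of uc003yss.4 to uc004bay.2 thus overlapped between siControl and siADAR1 and was higher in both combined-knockdown libraries. In these libraries uc002ndw.3 had gained on both already with siADAR1. Its siControl ratios rest on only 11 and 29 of its reads, and no interval was computed for them.

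The rows most like each of the 3 were found by Euclidean distance over the 6 libraries, in log2 CPM less the siControl mean. This likeness is a description across 2 libraries a group. It says nothing about function. uc004bay.2 and uc003yss.4 were 0.857 apart, and uc004bay.2 was the third nearest of all tested rows to uc003yss.4. uc002ndw.3 stood further off, 2.08 from uc003yss.4 and 2.67 from uc004bay.2.

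The row nearest to uc003yss.4, at a distance of 0.720, was the one just outside the 12-fold limit. Its level was 18.3 and 24.8 CPM in the siControl libraries, 172 and 253 CPM with siADAR1 and 351 and 368 CPM with both siRNAs. It was higher at each step, as uc003yss.4 was, though its siADAR1 libraries were further from each other. The row nearest to uc004bay.2, at 0.555, was also the second nearest to uc003yss.4. It stood at 0.722 and 0.538 CPM in siControl, 9.37 and 8.56 CPM with siADAR1 and 8.20 and 8.57 CPM in the combined knockdown.

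The nearest row to uc002ndw.3, at 1.89, had far fewer reads and a larger fitted fold. It went from 0.111 and 0.0897 CPM in siControl to 7.54 and 9.85 CPM with siADAR1 and 9.08 and 10.01 CPM in the combined knockdown. The nearest rows of uc004bay.2 included others whose combined-knockdown level was lower, by log2 differences of -0.70 and -0.49 from siADAR1. Likeness over the whole profile is thus led by the step from siControl and does not by itself pick rows that kept their level.

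**Figure D5:**
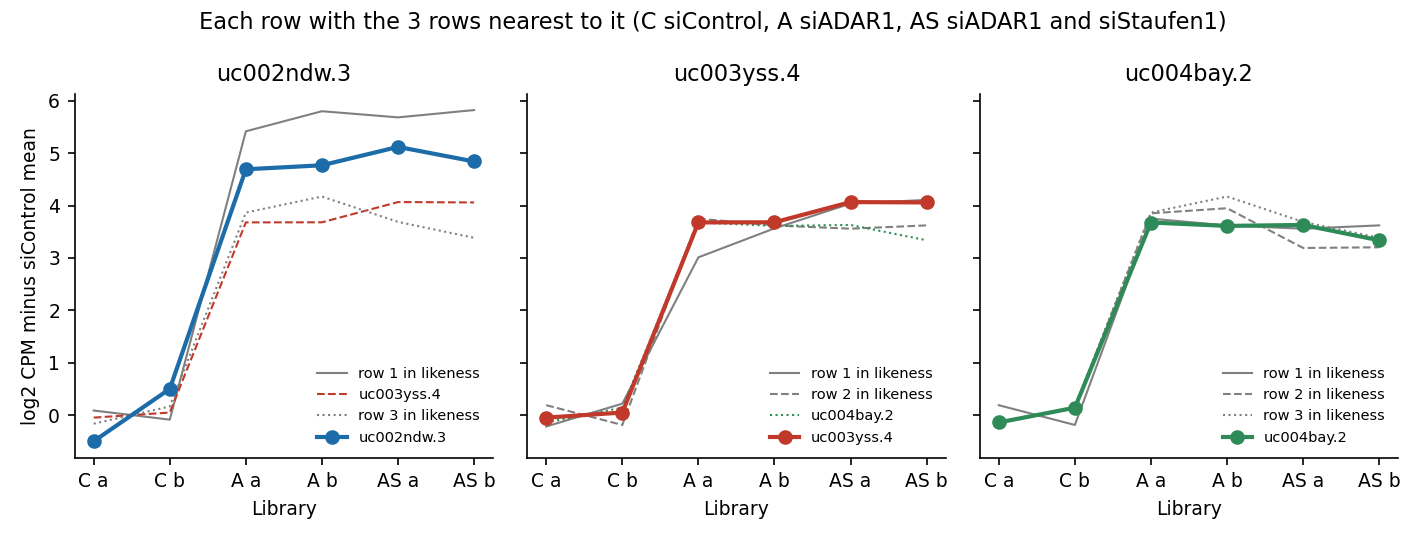
Log2 CPM less the siControl mean (vertical axis) in the 6 libraries (horizontal axis; C for siControl, A for siADAR1, AS for the combined knockdown) for each of the 3 rows, in colour with points, and the 3 tested rows nearest to it. Lines only join the values of a row. uc003yss.4 and uc004bay.2 run close to their nearest rows, at distances of 0.720 and 0.555, and uc002ndw.3 lies 1.89 from its nearest.

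The rows also differ in how many transcripts they sum. uc002ndw.3 and uc004bay.2 list 1 transcript each, as do 23.6% of the tested rows and 19 of the 48 rows over 12-fold (39.6%). uc003yss.4 lists 6, and 16.8% of tested rows list 6 or more. A row total does not show which of its transcripts changed. RSEM divides reads that match several genes by a model, and no strand setting is given in the sources used here, so whether any of the 3 totals includes reads of a near-identical copy or of an antisense transcript was not tested.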

How the data were processed

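The authors deposited estimated counts (RSEM expected counts) for 20514 rows of UCSC hg19 transcripts, whole numbers as found. The submitters' processing notes name RSEM 1.2.3, edgeR and build hg19. Which aligner, strand setting and rounding were used is not given in the sources used here. Libraries were made from total RNA with the SENSE mRNA kit V2, per the labels' protocols.

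Counts were used as deposited. Rows were kept by filterByExpr (10 reads, total 15), leaving 14711, and scaled by TMM. One model of 3 group means covered the 6 libraries (3 residual degrees of freedom) and groups were compared with edgeR's quasi-likelihood F test. R 4.3.3, edgeR 4.0.16, limma 3.58.1, DESeq2 1.42.0, Python 3.11.15 and matplotlib 3.10.9 were used, and the fit was tested on simulated data. An exact permutation test of 2 libraries against 2 cannot go below p = 0.333.

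The 3 rows and all comparisons were chosen with earlier results of these data known. Named besides them, by values only, were rows next to the 12-fold limit and the 3 nearest rows of each, in log2 CPM with a prior count of 2. The RefSeq gene table (GRCh38.p14) listed IDs of 4 rows among its synonyms and of 0 of the 3, so the planned target genes and cell markers were not analysed here. The alternatives were other scalings, no filter, DESeq2, limma-voom, a replicate block, the 4 libraries compared and each library left out.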

Additional observations from a re-analysis of the deposited data

How the results depend on the processing

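The direction of all 9 log2 fold changes held under every alternative run. Of 117 alternative values, 110 moved by less than the replicate SD and 7 by more. That SD comes from 2 libraries a group and differs greatly between rows, so the tally is no even measure of stability. A move from 4.70 to 5.38 for uc002ndw.3 with siADAR1 counted as within it. For uc003yss.4 between the knockdowns, a move from 0.384 to 0.376 counted as beyond it. Scaled to library totals, uc003yss.4 was at 3.99 for siADAR1 and 4.26 for the combined knockdown, against siControl, and at 0.27 between these, and uc004bay.2 at 3.99 with siADAR1. That scaling shifts the median log2 change of all rows by 0.30, 0.18 and -0.11 in the same order. For uc003yss.4, fitting only the 4 libraries compared gave 0.38 between the knockdowns, and leaving out each library gave 0.376 to 0.382. Of 55 alternative counts, 51 were within 1.5 times. Without a filter on low counts 349 rows were over 12-fold higher with siADAR1, and with each library left out 66 to 153, the upper values without a siControl library; the cause was not tested. The count of well-read rows that kept a 12-fold difference, whose alternatives were chosen after seeing the data, was 3 to 6 with a library left out. With the replicate block, uc002ndw.3, uc003yss.4 and uc004bay.2 were at 4.70, 3.69 and 3.68 with siADAR1, and 4858 rows rose. Across rows, same-letter libraries deviated together only by r = 0.051, 0.021 and 0.0060, so the letters were not taken as pairs. With 11 to 35 siControl reads per library in uc002ndw.3 and uc004bay.2, depth limits their folds.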
